A study of Mus musculus with 12 samples.

Results

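Clade B serpins are the serpins that stay mainly inside the cell. Most of them inhibit a protease by offering an exposed stretch, the reactive centre loop, as bait, and the cleaved serpin then traps the protease, so the loop decides which protease is caught. In the mouse the family is enlarged by close copies, and the copies of Serpinb9, the inhibitor of granzyme B in lymphocytes, lie side by side on chromosome 13. Here 9 genes of the family were followed in C2C12 cells, a mouse myoblast line that fuses into myotubes, among the 46983 genes of the expression table. They are Serpinb9 and its copies Serpinb9b, Serpinb9e, Serpinb9f and Serpinb9g, and the relatives Serpinb1a, Serpinb2, Serpinb6a and Serpinb6b, matched by gene symbol. The family was chosen on these data, because Serpinb9e had the highest log2 difference between PPARγ/+ and WT cells on 0d of the 18023 genes tested. Levels on 0d are therefore given between the cell types as a description without a test, and Serpinb9e is tested only between the cell types on 5d.

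RNA was sequenced from C2C12 cells of 4 groups with 3 libraries each. The WT cells were transfected with the PB-IP vector, a PiggyBac transposon vector without insert, and the PPARγ/+ cells with the same vector carrying the coding sequence of PPARγ, the nuclear receptor that drives the formation of fat cells. Either kind was collected on 0d, before it differentiated, and on 5d, when it had differentiated for 5 days. The PPARγ/+ cells were obtained by selection with puromycin, so a difference between the cell types is a difference between selected cell populations, and the transgene cannot be told apart from other differences between them. Levels are given as FPKM, the fragments of a gene per kilobase of its transcript and relative to the mapped fragments of the library, and differences as log2 fold changes of FPKM + 0.1. Each library held from 15529269 to 21973434 fragments on genes, and fragments of single genes are given where they are few. The nominal targeted gene, Pparg, had from 3.12 to 7.56 FPKM in the 6 WT libraries and from 28.0 to 92.7 FPKM in the 6 PPARγ/+ libraries, values that count the inserted sequence too. In bulk RNA, a change in the number of cells that express a gene and a change of its level per cell cannot be told apart. The myotube markers Myog and Myh3 were at 90.0 and 87.9 FPKM in WT_5d replicate 3, against at least 215 and 307 FPKM in the other WT libraries of 5d. This library stood apart, and results that rest on it are also given without it. The WT libraries of 0d were not uniform either. WT_0d replicate 2 had 15.7 and 7.72 FPKM of these markers, against at most 2.69 and 0.706 FPKM in the other WT libraries of 0d. Nor were the PPARγ/+ libraries of 5d uniform. Replicate 3 had 92.7 FPKM of Pparg, against 40.1 and 44.1 FPKM in replicates 1 and 2. It had 40.5 FPKM of the adipocyte marker Adipoq, against 8.03 and 12.7 FPKM, and 11.9 FPKM of Serpinb9e, against 7.04 and 7.34 FPKM.

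Serpinb9e, Serpinb9f and Serpinb9g are nearly alike in sequence and lie within 236 kb on chromosome 13 (GRCm38), all on the plus strand, at 33249612 to 33260850, 33324077 to 33335370 and 33484790 to 33496004. Serpinb9 (33003250 to 33017957) and Serpinb9b (33027416 to 33041884) lie upstream of them on the same strand. The coding sequences of Serpinb9e and Serpinb9f had 1074 identical bases among 1131, those of Serpinb9e and Serpinb9g 1078 and those of Serpinb9f and Serpinb9g 1116, whereas Serpinb9e was 82.1% identical to Serpinb9 and 79.4% to Serpinb9b. The bases that code for the reactive centre loop are shown because they set these proteins apart more than the rest of the coding sequence. The stretch runs from the codon after the conserved Glu-Glu-Gly-Thr motif of the loop's hinge to the codon before the conserved His-Pro-Phe, all of it in the last coding exon. Capitals mark bases that differ from Serpinb9e or are absent from it in a pairwise alignment.
Serpinb9e: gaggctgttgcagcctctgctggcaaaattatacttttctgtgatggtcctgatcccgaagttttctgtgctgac
Serpinb9f: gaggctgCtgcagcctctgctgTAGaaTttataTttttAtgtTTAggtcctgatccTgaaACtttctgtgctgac
Serpinb9g: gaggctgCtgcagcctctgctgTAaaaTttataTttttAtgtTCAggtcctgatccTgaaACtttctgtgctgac
Serpinb9b: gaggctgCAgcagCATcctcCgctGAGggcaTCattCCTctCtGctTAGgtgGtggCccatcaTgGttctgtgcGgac
Serpinb9: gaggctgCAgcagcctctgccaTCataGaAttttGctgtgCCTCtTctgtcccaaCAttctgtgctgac
In GRCm38 these stretches are chr13:33259983-33260057, chr13:33334503-33334577, chr13:33495133-33495207, chr13:33039808-33039885 and chr13:33015705-33015773. Over 75 bases Serpinb9f differed from Serpinb9e at 13 positions and Serpinb9g at 12, while Serpinb9b and Serpinb9 also differed in length, with 78 and 69 bases. In the map of coding identity Serpinb9e, Serpinb9f and Serpinb9g form a group with Serpinb9d, a further copy, and the relatives outside the Serpinb9 copies stay between 57.1% and 66.7% against the former 3.

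**Figure D1:**
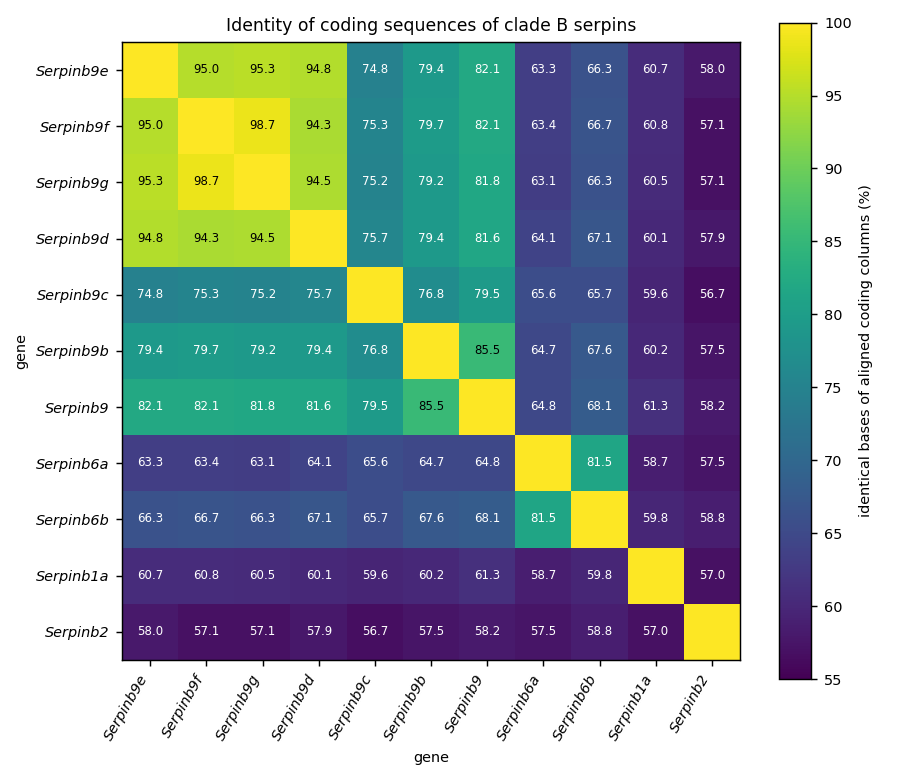
Each cell gives the percentage of identical bases among the aligned columns of the coding sequences of a pair of clade B serpins (GENCODE M21, longest coding transcript of each gene, gaps counted as differing). Serpinb9e, Serpinb9f, Serpinb9g and Serpinb9d are between 94.3% and 98.7% identical, and Serpinb6a and Serpinb6b 81.5%.

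Reads that fit more than 1 copy can be lost or shared when reads are counted per gene, so the transcripts were cut into every possible window and compared with the transcripts of all other genes. Of the windows of 50 bases in Serpinb9e, 28.4% were also present in another gene, and 10.1% of those of 100 bases. For Serpinb9f the shares were 78.7% and 52.3%, and for Serpinb9g 54.8% and 38.5%, most of them shared with Gm11397, a further gene of the cluster that is listed at 0 FPKM in all 12 libraries. The levels of Serpinb9f and Serpinb9g are therefore uncertain. Small values can hold reads of Serpinb9e, more so for Serpinb9f, which had 18.8% of its windows of 50 bases in common with Serpinb9e, than for Serpinb9g, with 7.93%. For windows of 100 bases these shares were 5.57% and 0.0547%. For Serpinb9, Serpinb9b, Serpinb1a and Serpinb6b at most 5.38% of the windows of 50 bases were shared. Serpinb2 shares 291 exonic bases with Serpinb10, which held no more than 1 fragment in any library. Serpinb6a overlaps exons of Nqo2, Ripk1 and 1110046J04Rik on the opposite strand by 762, 241 and 584 bases, and Serpinb9b overlaps Gm36099 by 278 bases. The library kit did not mark strand, so reads of these overlaps cannot be assigned.

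Serpinb9e was nearly off in WT cells and among the expressed genes in PPARγ/+ cells. In WT cells it had 0.403, 0.227 and 0.405 FPKM on 0d, from 15, 11 and 18 fragments, and 0.655, 0.783 and 0.137 FPKM on 5d, from 32, 29 and 6 fragments. In PPARγ/+ cells it had 11.8, 8.13 and 11.4 FPKM on 0d and 7.04, 7.34 and 11.9 FPKM on 5d, from at least 280 fragments in each library. Every PPARγ/+ library lay above every WT library, and neither cell type separated its days. By the means, 10.4 ± 2.01 FPKM (SD, n = 3) stood against 0.345 ± 0.102 (SD, n = 3) on 0d, a ratio of 30.3 that the choice of the gene fixed and that has no test. On 5d the means were 8.76 ± 2.72 and 0.525 ± 0.342 FPKM, a ratio of 16.7. The log2 difference on 5d was 3.99 (standard error 0.54, 95% confidence interval 2.68 to 5.31), the 10th highest of all genes tested, with an unadjusted p of 3.2e-04 in limma and an adjusted p of 0.0773, which missed the threshold of 0.05. Without WT_5d replicate 3 the difference was 3.40 with an adjusted p of 0.00736 in limma. With the spread taken from all 12 libraries it was 3.99 with an adjusted p of 0.00137. With any other library of 5d left out the adjusted p was from 0.173 to 0.300, and with a replicate block it was 0.276. Without PPARγ/+_5d replicate 3 the difference was 3.75. The libraries of 0d and 5d overlapped for Serpinb9e in WT cells (log2 difference 0.31 with a standard error of 0.53). They also overlapped in PPARγ/+ cells (-0.27 with a standard error of 0.23).

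Serpinb9f had few fragments throughout. In WT cells there were 4, 4 and 0 on 0d and 7, 5 and 1 on 5d, and in PPARγ/+ cells 36, 21 and 30 on 0d and 11, 23 and 11 on 5d. Its mean was 0.0636 FPKM in WT cells and 0.637 FPKM in PPARγ/+ cells on 0d, and 0.101 and 0.382 FPKM on 5d. It passed the filter on low values (0.1 FPKM in at least 3 libraries). On 5d the log2 difference was 1.28 (standard error 0.37, adjusted p = 0.266 in limma) without overlap of the libraries. Between 0d and 5d the change was 0.30 in WT cells (adjusted p = 0.613 in limma) and -0.62 in PPARγ/+ cells (adjusted p = 0.139 in limma), neither of which was called.

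Serpinb9g rose in WT cells. There it had 0.188, 0.124 and 0.0225 FPKM on 0d, from 7, 6 and 1 fragments, and 0.981, 0.863 and 0.274 FPKM on 5d, from 48, 32 and 12 fragments. The log2 rise of 1.88 (standard error 0.51, unadjusted p = 0.00965, adjusted p = 0.0308 in limma) was called, but with a pseudocount of 1 it was 0.59, short of 2-fold. In PPARγ/+ cells there were 111, 75 and 85 fragments on 0d and 56, 80 and 96 on 5d, or from 1.41 to 2.69 FPKM, with a log2 difference of 0.01 (standard error 0.26). The difference between these changes, -1.87, had an adjusted p of 0.232 in limma. Without WT_5d replicate 3 it was -2.35 with an adjusted p of 0.0337, and this was 1 of 19 alternatives, the only one that changed its call. Its PPARγ/+ libraries lay above its WT libraries on both days, by 3.35 on 0d (no test) and by 1.49 on 5d (standard error 0.46, adjusted p = 0.295 in limma).

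The level of Serpinb9g relative to Serpinb9e was not the same in all groups. In FPKM it was from 0.178 to 0.201 of that of Serpinb9e in the 3 PPARγ/+ libraries of 0d and from 0.20 to 0.264 in those of 5d, but from 1.1 to 2.0 in the WT libraries of 5d. In the WT libraries of 0d, with at most 7 fragments of Serpinb9g, it was from 0.0555 to 0.545, a range that holds the PPARγ/+ values. Serpinb9f stood at 0.0260 to 0.0762 of Serpinb9e over all 6 PPARγ/+ libraries. In the WT libraries, with at most 7 fragments of Serpinb9f, it stood at 0.167 to 0.22 on 5d and at 0 to 0.365 on 0d. Over the 12 libraries, on the log2 scale, Pearson's r was 0.913 between Serpinb9e and Serpinb9f, 0.881 between Serpinb9e and Serpinb9g and 0.887 between Serpinb9f and Serpinb9g, which describes points that fall into groups and comes from genes that share sequence. Between Serpinb9e and Serpinb9b it was 0.399.

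Serpinb9b, for which inhibition of granzyme M is known, behaved otherwise than its neighbours. In WT cells it had 30.6, 24.7 and 22.6 FPKM on 0d and 7.33, 6.56 and 3.59 FPKM on 5d. In PPARγ/+ cells it had 15.9, 18.9 and 20.6 FPKM on 0d and 18.6, 20.7 and 26.0 FPKM on 5d. WT cells on 5d were thus the low group, and the other 3 groups lay between 15.9 and 30.6 FPKM. On 0d Serpinb9b was lower in every PPARγ/+ library than in any WT library, with a log2 difference of -0.49 (standard error 0.14, no test). Its log2 change in WT cells was a fall of -2.19 (standard error 0.27, adjusted p = 0.00188 in limma), and its difference of 0.23 in PPARγ/+ cells (standard error 0.15, adjusted p = 0.235) was not called. The difference between these log2 changes, fitted as an interaction over all 12 libraries, came to 2.42 (standard error 0.33, adjusted p = 0.0110 in limma). Between the cell types, the 5d libraries of Serpinb9b did not overlap, and PPARγ/+ cells were higher by 1.93 (log2, standard error 0.29), with an adjusted p of 0.0892 in limma, over the threshold. Without WT_5d replicate 3 this difference was 1.62 with an adjusted p of 0.0111 in limma. With any other library of 5d left out the adjusted p was from 0.164 to 0.309, and with a replicate block it was 0.286.

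Serpinb9, the inhibitor of granzyme B, had from 6.49 to 11 FPKM in the 12 libraries. In PPARγ/+ cells its log2 rise was 0.36 (standard error 0.08, adjusted p = 0.0114 in limma), short of 2-fold, and in WT cells the difference was 0.24 (standard error 0.16, adjusted p = 0.309). On 5d the cell types differed by 0.14 with a 95% confidence interval from -0.20 to 0.48.

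The makeup of the Serpinb9 transcripts differed between the groups, as the plot of stacked levels shows. With Serpinb9c and Serpinb9d included, 7 copies were measured, and their summed level was 34.2 ± 5.10 FPKM (SD, n = 3) in WT_0d, 17.4 ± 1.61 in WT_5d, 39.9 ± 2.64 in PPARγ/+_0d and 45.4 ± 7.92 in PPARγ/+_5d. Serpinb9b made up 75.7% of the sum in WT_0d and 33.0% (23.1% to 39.5%) in WT_5d, where Serpinb9 made up 52.8% (42.4% to 70.5%). WT_5d replicate 3 had 11.0 FPKM of Serpinb9 and 3.59 FPKM of Serpinb9b. Replicates 1 and 2 had 7.85 and 8.22 FPKM of Serpinb9 and 7.33 and 6.56 FPKM of Serpinb9b. Serpinb9e made up 1.01% in WT_0d, 2.92% in WT_5d, 26.1% in PPARγ/+_0d and 19.0% in PPARγ/+_5d. These shares are a description, since the 0d levels of Serpinb9e chose it.

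**Figure D2:**
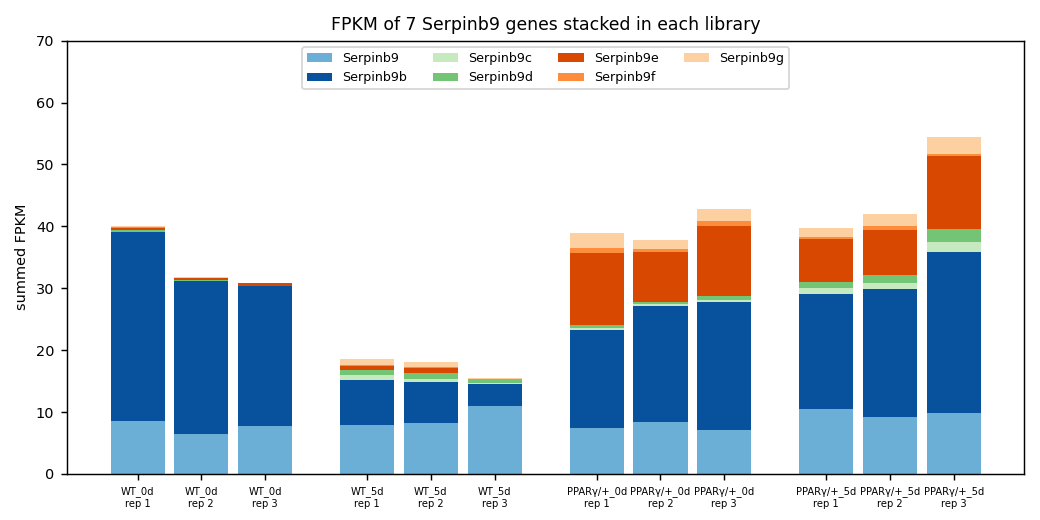
Each bar is 1 library, and its segments are the FPKM of the 7 Serpinb9 genes. Serpinb9b and Serpinb9 fill nearly the whole bar in WT cells on 0d, WT cells on 5d have the lowest sums (15.5 to 18.5 FPKM), and the Serpinb9e segment is wide in the 6 PPARγ/+ libraries alone.

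Serpinb2, an inhibitor of urokinase, had the largest fall of the 8 genes tested from 0d to 5d, in WT cells. WT cells had 1.47, 2.70 and 1.65 FPKM on 0d and then 0.184, 0.0662 and 0.131 FPKM, the latter from 11, 3 and 7 fragments. In PPARγ/+ cells it had 0.680, 0.359 and 0.604 FPKM on 0d and 0.287, 0.356 and 0.275 FPKM on 5d. No neighbours in the order WT_0d, PPARγ/+_0d, PPARγ/+_5d and WT_5d overlapped. The log2 fall in WT cells was -3.16 (standard error 0.32, adjusted p = 8.7e-04 in limma), and in PPARγ/+ cells -0.64 (standard error 0.25, unadjusted p = 0.0382, adjusted p = 0.0737), short of 2-fold. This interaction came to 2.51 (standard error 0.41, adjusted p = 0.0227 in limma). Each of 7 libraries, left out in turn, took its adjusted p over 0.05, to between 0.0522 and 0.0724. These were WT_0d replicates 2 and 3, WT_5d replicate 2, PPARγ/+_0d replicate 2 and all 3 of PPARγ/+_5d. Between the cell types on 5d Serpinb2 differed by 0.87 (standard error 0.25, adjusted p = 0.271).

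Serpinb6a, an inhibitor of trypsin-like proteases and cathepsin G, had the highest level of the 9 genes and was nearly the same in both cell types. On 0d it had 79.1, 68.2 and 68.1 FPKM in WT cells and 66.2, 80.1 and 69.6 FPKM in PPARγ/+ cells, and on 5d 51.7, 47.8 and 46.0 FPKM and 48.1, 47.5 and 48.9 FPKM. Its log2 fall over the 5 days was -0.56 in WT cells (standard error 0.09, adjusted p = 0.00462 in limma) and -0.57 in PPARγ/+ cells (standard error 0.08, adjusted p = 0.00111), both short of 2-fold. On 5d the log2 difference between the cell types was -0.01, with a 95% confidence interval from -0.16 to 0.14. Its near copy Serpinb6b rose instead. It had 3.05, 4.02 and 4.50 FPKM on 0d and 6.85, 5.39 and 5.53 FPKM on 5d in WT cells, and 5.92, 4.81 and 3.96 FPKM and then 8.55, 8.79 and 13.7 FPKM in PPARγ/+ cells. Only the rise in PPARγ/+ cells was called, at 1.05 (standard error 0.22, adjusted p = 0.00738 in limma), and without PPARγ/+_5d replicate 3 or PPARγ/+_0d replicate 3 it was 0.83 or 0.91, short of 2-fold. In WT cells the rise of 0.62 (standard error 0.17, adjusted p = 0.0334) was short of 2-fold, and the interaction of 0.43 had an adjusted p of 0.628 in limma.

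Serpinb1a, an inhibitor of neutrophil elastase and cathepsin G, was expressed at 28.8, 30.8 and 30.9 FPKM in WT cells on 0d and at 43.0, 46.0 and 33.5 FPKM on 5d. The log2 rise of 0.42 (standard error 0.13, adjusted p = 0.0404 in limma) was short of 2-fold. PPARγ/+ cells had from 35.4 to 49.1 FPKM on 0d and from 40.8 to 52.0 FPKM on 5d, which overlapped.

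**Figure D3:**
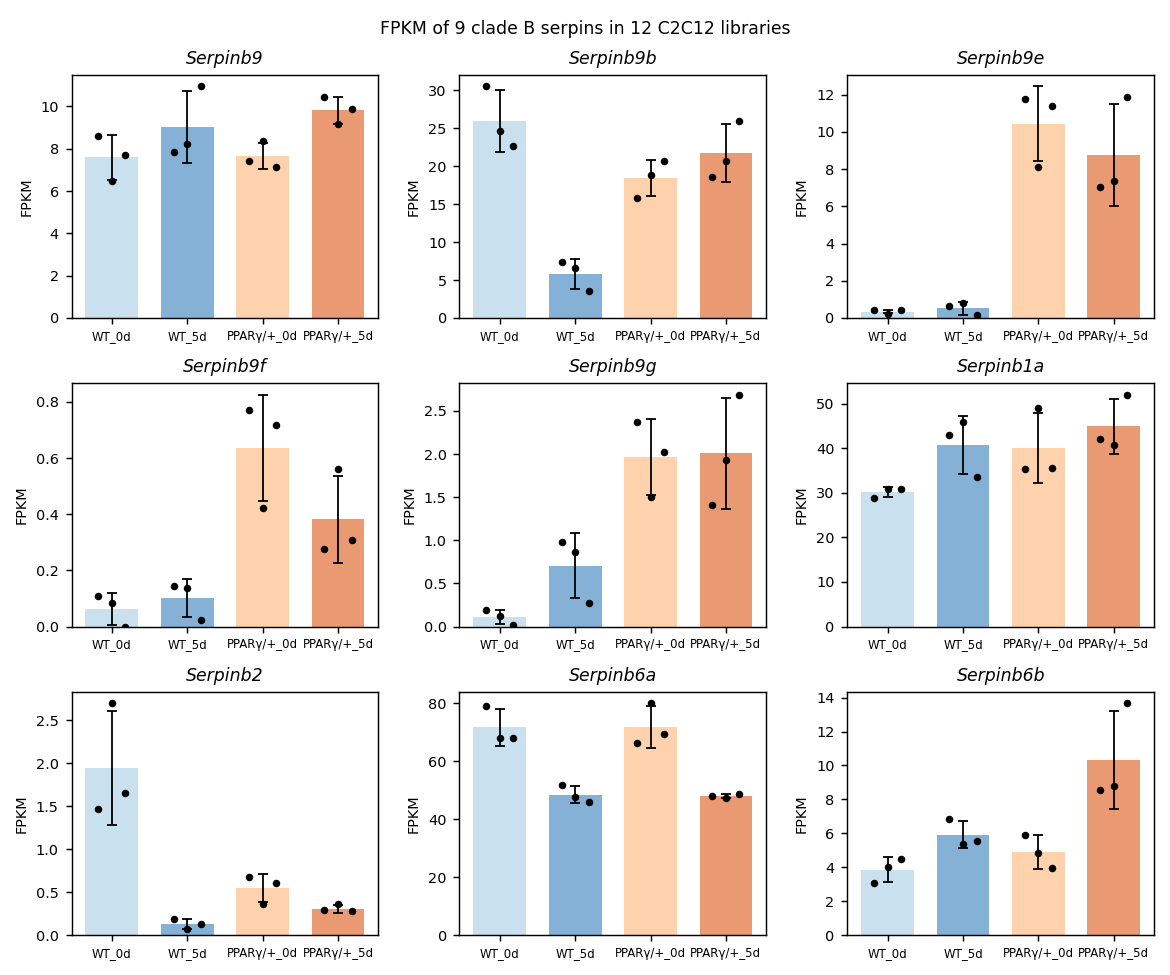
Points are the FPKM of single libraries, bars the mean of 3 libraries and whiskers 1 SD, on a scale of its own for each gene. Serpinb9e, Serpinb9f and Serpinb9g are higher in the 6 PPARγ/+ libraries than in the 6 WT libraries, Serpinb9b is low in WT cells on 5d alone, and Serpinb6a falls alike in both cell types.

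Of the 9 genes 8 were tested from 0d to 5d, all but Serpinb9e. WT cells had 3 of 8 called, where 16.5% of all genes tested were called. Serpinb9g rose, as did 8.94% of all genes, and Serpinb9b and Serpinb2 fell, as did 7.53%. PPARγ/+ cells had 1 of 8 called, Serpinb6b, which rose, against 15.2% of all genes in either direction and 9.11% that rose. Both shares come from few genes and no test was made of them. The 9 genes had a median log2 change of 0.30 in WT and 0.01 in PPARγ/+ cells, where all genes had medians of -0.08 and -0.10. In the interaction 2 of 8 were called, Serpinb9b and Serpinb2, both positive, against 0.76% of all genes in either direction and 0.583% with a positive value.

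Between the cell types on 5d none of the 9 genes reached an adjusted p of 0.05 in limma together with 2-fold, and 0.155% of all genes did. At an unadjusted p of at most 0.05 were 6 of 9, where 12.7% of all genes were, and the same 6 did not overlap between the cell types, against 18.5% of all genes in either direction and 10.2% that were higher. They were Serpinb9b, Serpinb9e, Serpinb9f, Serpinb9g, Serpinb2 and Serpinb6b, all of them higher in PPARγ/+ cells. Past 2-fold higher were 4, all copies of Serpinb9, against 2.45% of all genes. These counts hold Serpinb9e, which the same comparison on 0d chose, and Serpinb9f and Serpinb9g, which share sequence with it. They are not counts of independent genes. Without WT_5d replicate 3 Serpinb9f was at 0.96, short of 2-fold, and Serpinb9g just past it. With a pseudocount of 1 both were short of it, at 0.32 and 0.82. The median log2 difference of the 9 genes on 5d was 0.87, against 0.02 for all genes. On 0d, the day that chose the family, 4 of 9 were past 2-fold, against 5.22% of all genes (1.97% higher and 3.25% lower). Serpinb9e (4.58), Serpinb9g (3.35) and Serpinb9f (2.20) were higher in PPARγ/+ cells and Serpinb2 (-1.64) was lower. The 2 comparisons of a cell type across days and the 2 comparisons between cell types share libraries, so their values stand side by side and are not independent.

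**Figure D4:**
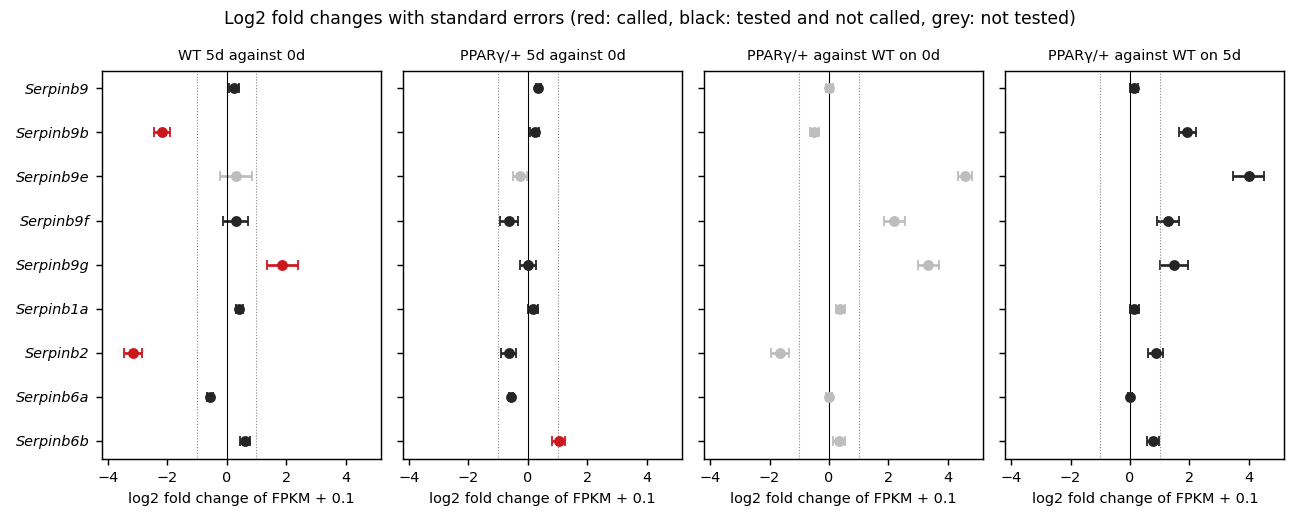
Points are log2 fold changes of FPKM + 0.1 with their standard errors, for 5d against 0d within each cell type and for PPARγ/+ against WT cells on each day, and dotted lines mark 2-fold. On both days Serpinb9e, Serpinb9g and Serpinb9f lie to the right of the 2-fold line, and Serpinb2 lies to the left of 0 on 0d and to the right of it on 5d.

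The 250 bases before the start sites of Serpinb9e, Serpinb9f and Serpinb9g (RefSeq, GRCm38) are shown because these 3 genes were higher together in PPARγ/+ cells. PPARγ binds DNA with its partner RXR at direct repeats of the element AGGTCA. Capitals mark each AGGTCA on the strand shown or, as TGACCT, on the other strand.
Serpinb9e: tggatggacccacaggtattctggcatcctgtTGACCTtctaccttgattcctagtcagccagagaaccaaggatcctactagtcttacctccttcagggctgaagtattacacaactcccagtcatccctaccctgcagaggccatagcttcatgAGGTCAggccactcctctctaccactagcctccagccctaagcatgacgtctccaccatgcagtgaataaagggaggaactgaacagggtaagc
Serpinb9f: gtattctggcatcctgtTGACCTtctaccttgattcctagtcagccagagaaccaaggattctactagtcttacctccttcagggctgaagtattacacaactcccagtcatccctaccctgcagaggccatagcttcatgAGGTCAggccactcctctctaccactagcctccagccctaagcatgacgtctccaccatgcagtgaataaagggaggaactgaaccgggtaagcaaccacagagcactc
Serpinb9g: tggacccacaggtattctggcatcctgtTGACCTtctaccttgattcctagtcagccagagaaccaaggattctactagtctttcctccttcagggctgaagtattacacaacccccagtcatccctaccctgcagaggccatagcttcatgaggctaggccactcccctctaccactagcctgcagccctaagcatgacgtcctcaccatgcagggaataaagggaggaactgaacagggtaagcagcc
The windows are chr13:33249358-33249607, chr13:33323827-33324076 and chr13:33484540-33484789 on the plus strand, and each ends at the base before the start site. Serpinb9e and Serpinb9g had 92.9% identical bases over the aligned windows and Serpinb9e and Serpinb9f 87.9%, while Serpinb9e shared 46.9% with Serpinb9 and 48.2% with Serpinb9b. Serpinb9e held the element once on each strand, 94 and 218 bases before the start site, and Serpinb9f likewise, 109 and 233 bases before it. Serpinb9g held it once, on the other strand. Among 32851 such windows of all genes, 14.0% held AGGTCA on either strand and 1.36% held it at 2 or more places. Neither Serpinb9, Serpinb9b, Serpinb2, Serpinb6a nor Serpinb6b had a match. The copies Serpinb9c, in 1 of its windows, and Serpinb9d, whose window was 88.6% identical to that of Serpinb9e, had 1 match each. The direct repeat AGGTCANAGGTCA, in which the element is present in both parts, was found in 0.0335% of all windows and in none of the 8 of the 9 genes that are in the table. A match of letters does not show binding, and these windows hold only a small part of the sequence around each gene.

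Around Serpinb9e 27 genes were tested within 1000 kb, of which 13 are clade B serpins. In PPARγ/+ against WT cells, 5 of the 13 were past 2-fold higher on 0d and 5 on 5d, against 1.97% and 2.45% of all genes. These counts hold Serpinb9e, whose 0d level chose it and on which the window is centred, and copies that share sequence with it. None of the 14 other genes was past 2-fold higher on either day, which such low shares make likely for 14 genes. These 14 ranged from -2.08 (Mylk4, a muscle kinase) to 0.52 (Gmds) on 5d with a median of 0.01. Of them 2, Mylk4 and Gm25043 (-1.40), were past 2-fold lower on 5d. On 0d 2 were, Gm25043 (-2.125) and Tubb2b (-1.25), against 3.25% of all genes. On 5d Serpinb9b, Serpinb9c, Serpinb9e, Serpinb9f and Serpinb9g were the genes past 2-fold higher, and they span the region from 222 kb before to 235 kb after the start of Serpinb9e. Between Serpinb9b and Serpinb9c lie Serpinb1b, with a log2 difference of -0.22 (standard error 0.18), and the pseudogene Gm11384, with -0.33 (standard error 0.68). Between Serpinb9c and Serpinb9e lies Serpinb9d, at 0.88 (standard error 0.39), short of 2-fold. These were not tested as a region.

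**Figure D5:**
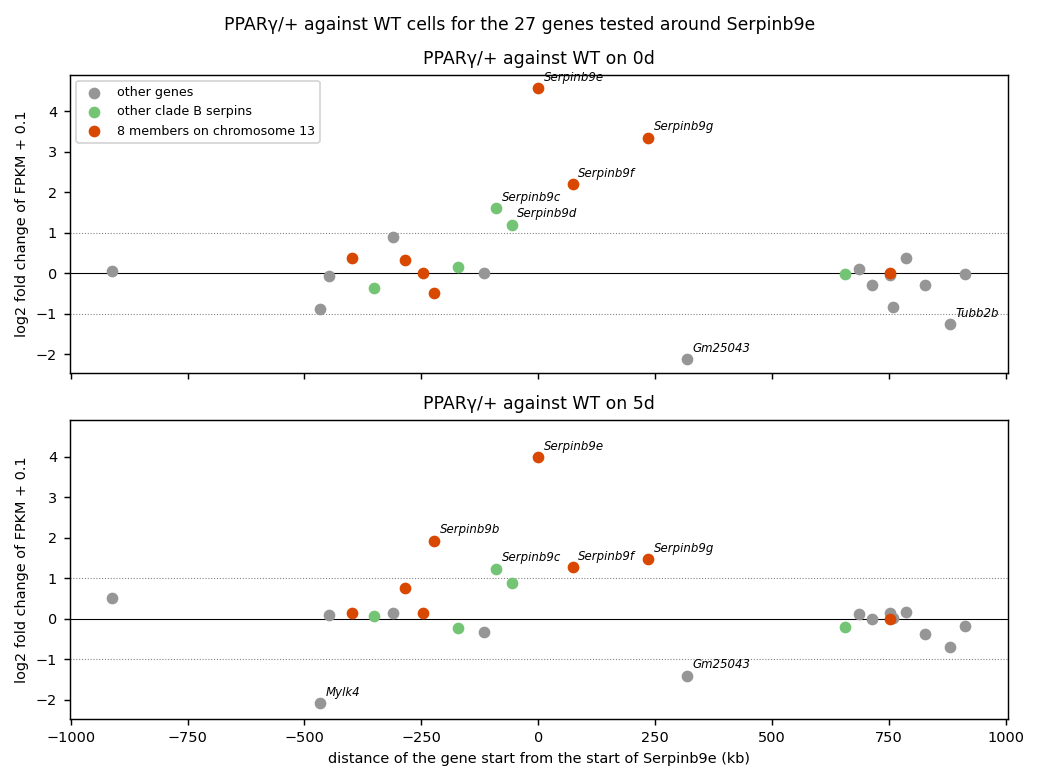
Each point is a gene tested within 1000 kb of the start of Serpinb9e, at the distance of its own start, with its log2 fold change between PPARγ/+ and WT cells on 0d (upper panel, no test) and on 5d (lower panel). Dotted lines mark 2-fold and genes past it are named. The genes past 2-fold higher are Serpinb9 copies on both days, namely Serpinb9c, Serpinb9d, Serpinb9e, Serpinb9f and Serpinb9g on 0d and Serpinb9b, Serpinb9c, Serpinb9e, Serpinb9f and Serpinb9g on 5d.

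Among the 19 other clade B serpins in the table, 7 passed the filter and 5 were at 0 in every library. WT cells had 3 of the 7 called as risen and 1 as fallen, and PPARγ/+ cells 4 and 1. Of all genes 8.94% rose and 7.53% fell in WT cells, and 9.11% rose and 6.06% fell in PPARγ/+ cells. Serpinb7 rose from 0.458 ± 0.311 to 3.53 ± 2.21 FPKM (SD, n = 3) in WT cells and from 0.140 ± 0.0475 to 1.24 ± 0.255 FPKM in PPARγ/+ cells, by 2.56 and 2.49 on the log2 scale. Serpinb8, an inhibitor of furin, fell from 6.06 ± 1.27 to 2.34 ± 0.166 FPKM and from 9.46 ± 1.34 to 2.84 ± 0.0931 FPKM. The copy Serpinb9d rose by 1.76 in WT cells and by 1.43 in PPARγ/+ cells, although 30.8% of its windows of 50 bases were shared with other genes. Serpinb9c rose by 2.11 in WT cells, where a library of 0d held 0 to 3 fragments and one of 5d held 8 to 37, and by 1.74 in PPARγ/+ cells. None of the 7 was called between the cell types on 5d or in the interaction. Of the 40 serpins of other clades 10 were tested. Called as risen were 4 of them in WT cells and 4 in PPARγ/+ cells.

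Granzymes, other serine proteases and genes of plasminogen activation were present unevenly. Whether the 9 serpins inhibit the proteases named here was not tested. Of 10 granzymes 3 passed the filter and 3 were at 0 in every library. Their summed level was between 0.535 and 1.85 FPKM in WT cells and between 1.88 and 5.70 FPKM in PPARγ/+ cells. Gzme, a granzyme of mouse lymphocytes and placenta, was the member called. Its mean was 0.623 FPKM in WT_0d, 0.108 in WT_5d, 0.929 in PPARγ/+_0d and 3.63 in PPARγ/+_5d. On 5d its log2 difference between the cell types was 4.28 (adjusted p = 0.0499 in limma). Of 8 serine proteases of neutrophils and mast cells 2 passed the filter. Tpsab1, a tryptase, had a log2 difference of 6.22 on 5d (adjusted p = 0.00378 in limma), at 13.4 ± 4.54 FPKM (SD, n = 3) in PPARγ/+ and 0.0757 ± 0.0232 FPKM in WT cells. On 0d it had 17.7 ± 3.80 FPKM in PPARγ/+ cells and 2.48 ± 3.82 FPKM in WT cells, whose libraries were thus uneven. Mcpt8, a protease of basophils, was called as risen in PPARγ/+ cells, to 0.455 ± 0.276 FPKM, and had higher means in WT cells, 0.702 FPKM on 0d and 1.82 FPKM on 5d. Of 5 genes of plasminogen activation 4 were tested. Plaur, the urokinase receptor, fell from 24.2 to 3.82 FPKM in WT cells and from 13.8 to 3.58 FPKM in PPARγ/+ cells. Plau, which encodes urokinase, had 29.7 ± 7.80 FPKM in WT_0d and 22.9 ± 9.48 in WT_5d, not called, and rose in PPARγ/+ cells from 8.46 ± 1.17 to 17.2 ± 0.265 FPKM. Plat, the tissue activator, rose in PPARγ/+ cells from 17.9 ± 3.57 to 56.5 ± 1.81 FPKM.

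Markers of other cell types were read beside these values. Of 12 immune cell markers 3 passed the filter. The leukocyte antigen Ptprc was at most 0.00649 FPKM, Nkg7 and Mpo were at 0 in all 12 libraries, and Cd3e and Prf1 were at most 0.0306 and 0.0252 FPKM. The summed level of the list was between 3.10 and 8.21 FPKM in WT cells and between 6.17 and 7.53 FPKM in PPARγ/+ cells, most of it Cd68 and Lyz2. Lyz2, a lysozyme of macrophages and neutrophils, was the list's only gene called from 0d to 5d, risen by 1.76 in WT and 1.14 in PPARγ/+ cells, and its mean on 0d was 0.534 FPKM in WT and 1.56 FPKM in PPARγ/+ cells. Of all genes tested, 8.94% rose in WT cells and 9.11% in PPARγ/+ cells. All 6 adipocyte markers passed the filter, 5 of them were called as risen in PPARγ/+ cells and none in WT cells. One of those called, Cfd, ranged from 0.314 to 12.3 FPKM in PPARγ/+_5d. The summed level of the adipocyte markers was at most 7.27 FPKM in WT cells and at least 10.4 FPKM in PPARγ/+ cells. The 5 myoblast and myotube markers were summed at 117 to 226 FPKM in WT cells and 52.6 to 76.4 FPKM in PPARγ/+ cells on 0d, and at 344 to 1459 and 343 to 411 FPKM on 5d. In WT cells 4 of them and in PPARγ/+ cells all 5 were called as risen, against the same 8.94% and 9.11% of all genes. The part of these markers in the serpin levels was not tested.

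Of all genes with a group mean of at least 1 FPKM, those with the pattern most like that of Serpinb9e over the 12 libraries were Fabp4 (Pearson's r 0.937), Pparg (0.928), Adipoq (0.889), Fam183b (0.888) and Gm16276 (0.883). Fabp4 and Adipoq encode a fatty acid carrier and a hormone of fat cells. Fabp4 held at most 5 fragments in any WT library, and in PPARγ/+ cells a library of 0d held 186 to 218 fragments and one of 5d held 384 to 862, a change called at 1.63 on the log2 scale (adjusted p = 0.00657 in limma). Adipoq held at most 1 fragment in a WT library, and from 1.06 to 2.46 FPKM on 0d and from 8.03 to 40.5 FPKM on 5d in PPARγ/+ cells. Serpinb9e lay above its WT level on 0d, by which it was chosen, and so did these genes. Its libraries of 0d and 5d overlapped in PPARγ/+ cells, where those of Fabp4 and Adipoq did not. The genes most like Serpinb2 were Poc1b (0.973), Dlx3 (0.962), Xpo5 (0.961), Gm19589 (0.958) and Adss (0.958). All of these correlations describe 12 libraries in 4 groups. Those of Serpinb9e include the 0d libraries that chose it, so its likeness to genes higher in PPARγ/+ cells was fixed in part by that choice.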

How the data were processed

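Paired-end RNA sequencing gave 12 libraries. Per the methods, the authors used Trim Galore for trimming, STAR for alignment and HTSeq for counts on genes of Ensembl release 83, and from the counts they calculated FPKM. The methods name GRCm38 and the labels a different build, mm9. With exonic lengths of GRCm38, 78.5% of the expressed genes gave whole fragments (within 0.02), so GRCm38 was used for positions. The deposited FPKM of the 9 genes, all of which passed the filter, were the values analysed. A deposited log2 table of the authors equals log2(FPKM + 1) and was not analysed further.

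Fragments were recovered as FPKM times exonic length times the mapped read pairs that the study gives, with the length inferred for Serpinb9b, Serpinb9e, Serpinb9g, Serpinb1a and Serpinb6b, for which the annotated length gave no whole numbers. Fragments carry counting error. limma 3.58.1 in R 4.3.3 (empirical Bayes with a trend) was run on log2(FPKM + 0.1) of the 18023 genes with at least 0.1 FPKM in at least 3 libraries, with Benjamini-Hochberg adjustment over them. Changes from 0d to 5d were fitted on the 6 libraries of a cell type and called at an unadjusted p of at most 0.05 and 2-fold, the thresholds of the methods. PPARγ/+ against WT cells on 5d was called at an adjusted p of at most 0.05 and 2-fold, and the interaction, over 12 libraries, at an adjusted p of at most 0.05. The code was tested on simulated data. The libraries are described as biological replicates without naming separate cultures, so p-values measure the spread between these libraries.

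The 9 genes and all gene lists were chosen with earlier results of these data known. Named were the 9 genes, of the other clade B serpins and of each list at most 4 genes that were called and had a group mean of at least 1 FPKM, the 5 genes with the highest r to Serpinb9e and Serpinb2, and Pparg. Genes with low values, other than these, that are named for an overlap or as neighbours were chosen after their values were seen. Coding sequences are of GENCODE M21, promoters of RefSeq, aligned with Biopython 1.88. A result on 1 gene of these lists is not reported here.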

Additional observations from a re-analysis of the deposited data

Results flagged for a closer look

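Over the 5 days, 2 of the 8 genes tested changed differently in WT and PPARγ/+ cells, by an interaction term fitted to all 12 libraries, which was called for 0.76% of all genes. For Serpinb9b this difference of log2 changes was 2.42 (standard error 0.33, adjusted p = 0.0110 in limma). All 3 WT libraries were lower on 5d than on 0d, and the PPARγ/+ libraries of the 2 days overlapped. For Serpinb2 it was 2.51 (standard error 0.41, adjusted p = 0.0227), where the WT libraries of 5d held 3 to 11 fragments, and its size ranged from 1.12 to 3.11 with the value added to the FPKM and the other alternatives that keep all libraries. Its call was lost in 8 of 19 alternatives.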

How the results depend on the processing

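Depth limits Serpinb9f in WT cells, Serpinb9g in WT_0d and Serpinb2 in WT_5d, where no library held more than 11 fragments, and shared sequence limits Serpinb9f and Serpinb9g. Values were recomputed with another pseudocount (1 or 0.01), another filter (none, or 1 FPKM), median-ratio scaling, quantile normalization, adjusted p-values, all 12 libraries in one fit, a replicate block and each library left out. Of the values of single genes, 605 kept their direction and side of the threshold, or moved by less than the spread between libraries, 10 turned sign, 12 fell short of the threshold, 5 newly passed it and 7 untested values moved by more than that spread. Median-ratio scaling moved the median of all genes from 0d to 5d by 0.10 in WT and 0.12 in PPARγ/+ cells (log2), and no count of called genes of the family changed with it. With a filter of 1 FPKM Serpinb9f was not tested.

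The count of genes called from 0d to 5d in WT cells was 2 with a pseudocount of 1, without Serpinb9g (0.59), and 3 in each other alternative. That in PPARγ/+ cells was 0 with a pseudocount of 1, and from 0 to 1 with libraries left out. Between the cell types on 5d it was 2 (Serpinb9b and Serpinb9e) with all 12 libraries in one fit, and from 0 to 2 with libraries left out, 2 without WT_5d replicate 3. Past 2-fold on 0d were 2 genes with a pseudocount of 1. Signs turned for values near 0. Under quantile normalization Serpinb9g was at -0.030 in PPARγ/+ cells and Serpinb6a at 0.012 between the cell types on 5d. With libraries left out, the change of Serpinb9f in WT cells ranged from -0.024 to 0.62, that of Serpinb9g in PPARγ/+ cells from -0.21 to 0.23, the difference of Serpinb6a on 5d from -0.047 to 0.038 and its interaction from -0.083 to 0.068. The count of interactions ranged from 1 to 3, with Serpinb9b called in each and 3 without WT_5d replicate 3. The cause of these changes was not tested.

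The replicate numbers are shared between groups, but same-numbered libraries did not deviate together (correlations from -0.0669 to 0.0834 across genes), so the numbers give no pairing. With the replicate block 1 interaction was called, since Serpinb2 (2.51) had an adjusted p of 0.0636.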
